A study of Mus musculus with 6 samples.

Results

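The genes described here were the glutathione peroxidases *Gpx1*, *Gpx3*, *Gpx4*, *Gpx7* and *Gpx8* and the factors that make and insert selenocysteine, *Sephs1*, *Sephs2*, *Secisbp2*, *Pstk* and *Sepsecs*. These 10 genes were chosen by symbol, and 9 of them were found among the 19078 genes of the table. *Gpx7* matched no row under its current or any older symbol and was not analysed here. RNA-Seq libraries of poly(A) RNA came from immortalized mouse fibroblasts (MF), with 3 libraries of *Ms4a15*-overexpressing cells (*Ms4a15* OE) and 3 of control cells. *Ms4a15* OE cells were a pool, not a clone, in which a CRISPR activation system with a guide to *Ms4a15* raises the gene from its own locus. Control cells are given as wild type in the labels and as infected with an empty lentivirus in the study's methods. According to the methods, the cells of both groups are embryonic fibroblasts that carry a conditional *Gpx4* knockout and express Cre-ERt2, so that loss of *Gpx4* needs 4-hydroxy-tamoxifen; no such treatment is given for these libraries. The sources do not say whether the 3 libraries of a group came from separate cultures.

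The value used for each gene was the authors' mean normalized count over all 6 libraries. It joins *Ms4a15* OE and control cells, so a difference between the groups was not analysed here, and the values below have no spread between replicates and no test. The means of all genes summed to 40991800, and the largest size factor was 1.28 times the smallest. The intervals of levels below are 95% Poisson intervals and cover counting error only. They treat reads as independent molecules, which reads are not, so they may be too narrow even for that. Shares have Wilson 95% intervals, which treat a share of length-divided levels as a plain proportion. They are approximate and do not cover the choice of length. In bulk RNA, fewer cells that express a gene and less RNA per cell cannot be told apart.

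All 8 fibroblast markers were found, from 12.1 for *Dcn* to 135155 for *Col1a2*, with a median of 35542. The 6 epithelial markers lay between 0.176 and 10.9, with *Epcam* at the lowest value. Of the 6 myeloid markers, *Ptprc* was at 11.1 and *Aif1* at 0.163, while *Lyz2* reached 534 and *Cd68* 164. Among 4 endothelial markers, *Pecam1* was at 15.9, *Kdr* at 1.36 and *Cdh5*, the highest, at 107. *Ms4a15* itself had a mean of 638 over both groups, which does not check the labels of single libraries.

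Many glutathione peroxidases reduce peroxides with electrons from glutathione. GPX4 is the member that reduces phospholipid hydroperoxides within membranes, and cells that lose it die by ferroptosis unless another defence against lipid peroxidation takes over. In several glutathione peroxidases the catalytic residue is selenocysteine, an amino acid written in mRNA as UGA, which otherwise ends translation. Selenocysteine is built on its own tRNA. SEPHS2 makes selenophosphate, PSTK phosphorylates the serine already loaded on the tRNA, and SEPSECS exchanges the phosphate for selenium. SECISBP2 binds the SECIS element, a hairpin in the 3′ untranslated region of selenoprotein mRNAs, and lets the elongation factor EEFSEC read UGA as selenocysteine.

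The catalytic codon separates the members into those that depend on this machinery and those that do not. The sequences around it are shown because they carry that distinction, and each runs 5′ to 3′ on the coding strand with the codon for the catalytic residue, or the codon aligned to it, in capitals. They were read from the GRCm38 (mm10) genome at the annotated coding sequence of the principal GENCODE transcript, and the coordinates include both flanks of 15 bases.
Gpx1: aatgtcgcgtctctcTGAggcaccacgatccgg
Gpx3: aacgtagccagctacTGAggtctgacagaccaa
Gpx4: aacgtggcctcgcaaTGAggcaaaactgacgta
Gpx8: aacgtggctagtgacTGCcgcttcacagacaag
Sephs2: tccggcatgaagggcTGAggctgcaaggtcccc
Sephs1: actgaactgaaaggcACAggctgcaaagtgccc

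*Gpx1*, *Gpx3*, *Gpx4* and *Sephs2* have TGA at this place, followed by G in all 4. *Gpx8*, an enzyme of the endoplasmic reticulum membrane, has a cysteine codon, and *Sephs1*, the paralog of *Sephs2*, has a threonine codon in an otherwise very similar stretch. SEPHS2 is thus a selenoprotein that supplies the selenium donor for selenoproteins. Counted from the start codon, the residue is codon 47 of 201 in *Gpx1*, 73 of 226 in *Gpx3*, 73 of 197 in the longer, mitochondrial form of *Gpx4*, 79 of 209 in *Gpx8*, 63 of 452 in *Sephs2* and 29 of 392 in *Sephs1*.

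The *Gpx1* window lies at chr9:108339436-108339468 on the plus strand, in exon 1 of 2. For *Gpx3* it is chr11:54907241-54907273, plus strand, in exon 2 of 5. *Gpx4* has it at chr10:80054722-80054754 on the plus strand, in exon 3 of 7. The cysteine codon of *Gpx8* is in chr13:113045646-113045678, minus strand, exon 2 of 3. The window of *Sephs2* is chr7:127273716-127273748 on the minus strand, in the only exon of that gene, and that of *Sephs1* is chr2:4884482-4884514 on the plus strand, in exon 2 of 9. All 6 windows are coding sequence and lie within 1 exon each.

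A UGA well before the last exon junction can mark an mRNA for nonsense-mediated decay, so the distance to that junction is given as a property of each transcript. It is 105 bases in *Gpx1*, 240 bases in *Gpx3* and 342 bases in *Gpx4*. *Sephs2* has no exon junction. Of the members with another residue, the aligned codon is 229 bases before the last junction in *Gpx8* and 877 bases before it in *Sephs1*.

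**Figure D1:**
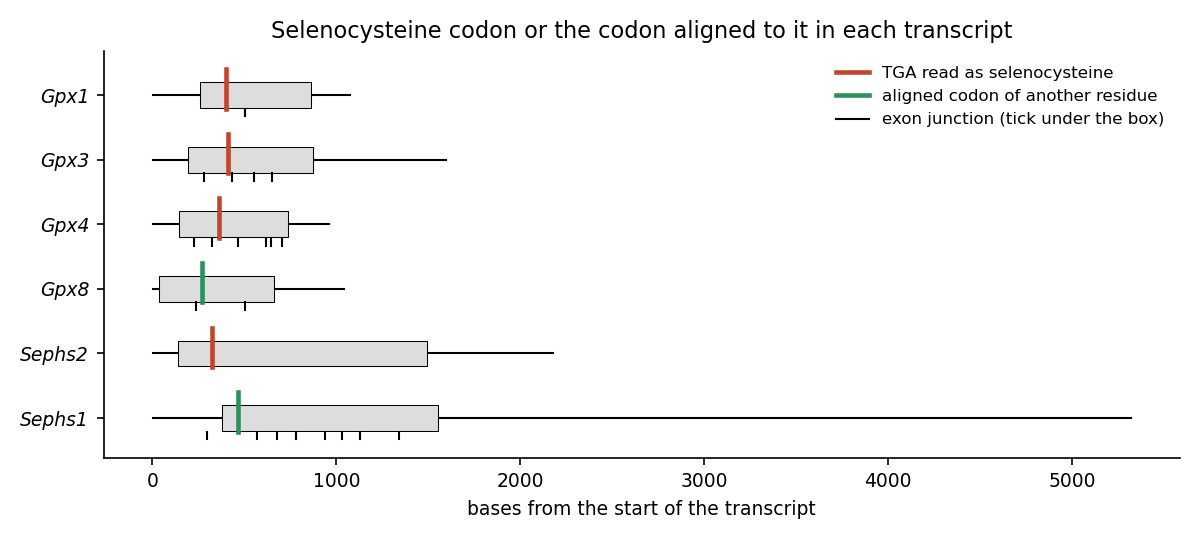
Position of the selenocysteine codon or the aligned codon in the principal transcript of 6 members. The x axis gives bases from the transcript start; boxes are coding sequence, lines are untranslated sequence, short ticks are exon junctions, red bars mark TGA and green bars mark another codon. In the 3 glutathione peroxidases with TGA the codon sits 105 to 342 bases before the last junction, and the single-exon *Sephs2* has no tick.

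Between the encoded peroxidases, *Gpx1* and *Gpx3* were the closest pair, with 102 of 195 aligned residues identical, or 52.3%. *Gpx4* shared 40.6% of 170 aligned residues with *Gpx1*, 37.2% of 183 with *Gpx8* and 34.0% of 191 with *Gpx3*. *Gpx8* shared 34.3% of 172 residues with *Gpx1* and 31.0% of 187 with *Gpx3*. *Sephs1* and *Sephs2* were far closer, with 294 of 391 aligned residues, 75.2%, identical. These identities came from the translated annotated coding sequences, with selenocysteine scored as cysteine.

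*Gpx1*, *Gpx8* and *Gpx4* were abundant mRNAs of these fibroblasts and *Gpx3* was far lower than these 3. *Gpx1*, the widely expressed enzyme that reduces hydrogen peroxide, had a mean normalized count of 5087 (interval 5027 to 5148) from 27059 to 34696 reads in the 6 libraries together. It was the only member in the top 10% of all genes, just above the value of 5079 where that group began, with 90.0% of genes below it. The interval of *Gpx1* includes that value, so its place in the top 10% is within counting error. *Gpx8* followed at 4088 (4034 to 4143), with 87.1% of genes below. *Gpx4* had 2520 (2477 to 2563), with 79.9% of genes below. *Gpx3*, the secreted peroxidase of plasma, had 6.46 (4.48 to 9.01) from 34 to 44 reads in all, and 29.4% of genes were lower. Its counting error of 35.0% was far above the 1.19% to 1.70% of the other 3, so the mean of *Gpx3* is known only roughly.

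The read ranges are given because the table holds means of counts divided by size factors and does not tell which library a size factor belongs to. For the 8 members other than *Gpx3*, counting error was 1.19% to 3.73% of the mean. The intervals of mean normalized count did not overlap for any pair of *Gpx1*, *Gpx8*, *Gpx4* and *Gpx3*. They cover neither the spread between libraries nor the lengths of the transcripts, so they do not settle the order of these genes.

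**Figure D2:**
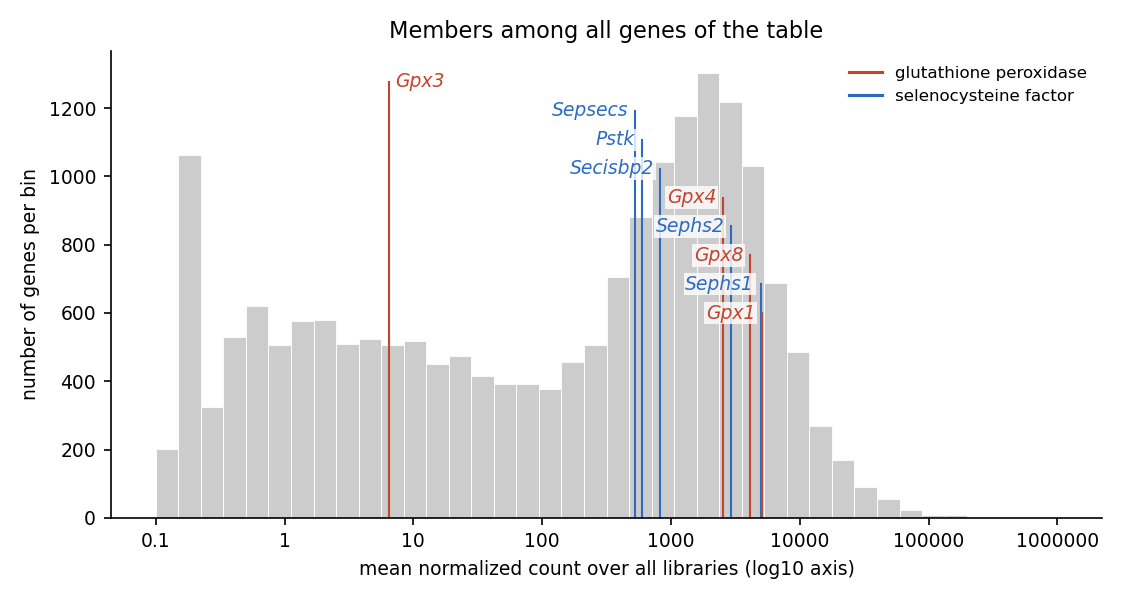
Members among all 19078 genes. The x axis is the authors' mean normalized count over 6 libraries on a log10 axis and the y axis the number of genes per bin; vertical lines mark members, red for glutathione peroxidases and blue for selenocysteine factors, and the height of a line only places its name. *Gpx3* at 6.46 stands apart, while the other 8 lie between 524 and 5087, in and around the upper peak of the distribution.

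Levels of different genes can be compared only per length. Divided by the length of the principal transcript, *Gpx1* (1072 bases) had 4745 mean normalized counts per kb (4689 to 4802), *Gpx8* (1042 bases) 3924 (3872 to 3976) and *Gpx4* (959 bases) 2627 (2583 to 2672). Only the 16193 genes matched to the annotation have a length, and ranks per kb are among these. On this scale all 3 were in the top 10%, with 96.1%, 95.1% and 92.5% of the matched genes below them. *Gpx3* (1594 bases) had 4.05 per kb (2.81 to 5.65), with 26.6% of the matched genes below. The median of the matched genes was 172 per kb, and 419 among those of them whose mean reached 10.

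*Gpx1* mRNA was thus 1.81 times as abundant as *Gpx4* per principal transcript, 1.98 times per coding length and 2.42 times with merged exons. The ratio of *Gpx8* to *Gpx4* was 1.49 per principal transcript, 1.53 per coding length and 2.67 with merged exons. *Gpx4* exceeded *Gpx3* by a ratio of 648 per principal transcript, 447 per coding length and 410 with merged exons, and all of these carry the counting error of *Gpx3*. The order of *Gpx1* and *Gpx8* depended on the length used. Their ratio was 1.21 per principal transcript and 1.29 per coding length, but 0.905 when the merged exons of all transcripts were taken, where *Gpx8* was higher. *Gpx4* stayed below both under all 3 lengths.

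Of the summed level per kb of the glutathione peroxidase genes in the table, *Gpx1* made up 42.0%, *Gpx8* 34.7%, *Gpx4* 23.2% (Wilson 95% interval 22.9% to 23.6%) and *Gpx3* 0.0359%. The only further family member found was *Gpx6*, with 4 reads in all libraries. *Gpx2* and *Gpx5* matched no row and, like *Gpx7*, are not part of this sum. Peroxidases with no selenocysteine therefore held 34.7% of the transcripts counted, almost all of it *Gpx8*, and 33.9% to 43.9% under the other lengths and without length correction. The share of *Gpx4* was 16.4% with merged exons, the lowest of the alternatives. *Gpx4* has 7 annotated transcripts, 3 of them coding, and the merged length counts the exons of all 7.

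Of the factors that make selenocysteine, the selenophosphate synthetase genes were the highest. *Sephs2*, which makes selenophosphate, had a mean normalized count of 2921 (2875 to 2967), with 82.3% of genes below it. Its paralog *Sephs1*, whose product does not make selenophosphate, had 4965 (4905 to 5025), with 89.7% below. *Sephs1* has a long transcript of 5319 bases, against 2177 for *Sephs2*, and per kb the order turned. *Sephs2* had 1342 per kb (1321 to 1363) and *Sephs1* 933 (922 to 945), a ratio of *Sephs1* to *Sephs2* of 0.696. Per coding length it was 1.96 and with merged exons 0.624, so which of the paralogs was more abundant depended on the long untranslated part of *Sephs1*.

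*Pstk* and *Sepsecs*, the enzymes that act one after the other on the loaded tRNA, were among the lowest members. *Pstk*, the kinase, had a mean of 593 (572 to 614), with 58.1% of genes below it, and *Sepsecs*, the synthase, had 524 (505 to 544), with 56.7% below. Among only the genes whose mean reached 10, 38.1% were below *Pstk* and 36.1% below *Sepsecs*. Both means were under the median of 1082 of those genes. Per kb *Pstk* had 522 (504 to 541) and *Sepsecs* 99.7 (96.1 to 104), a ratio of 5.24. That ratio was 1.59 per coding length and 0.998 with merged exons, so no order between these enzymes held over the 3 lengths.

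*Pstk* is also the member whose reads are hardest to assign. Its 11 annotated transcripts merge to 7914 bases of exon, against 1135 for the principal transcript. On the opposite strand, *Ikzf5*, with a mean of 1135, shares 4652 of these bases, 58.8% of the merged exons of *Pstk*. The kit named in the labels keeps the strand, but whether counting used it is not given in the sources used here, so reads of the genes in the shared part may not have been told apart. *Sephs2* shares 792 bases (36.4% of its exon) with *Gm44729* on the opposite strand, which has no row in the table. The pseudogene *Gpx4-ps2* also has no row.

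*Secisbp2*, which binds the SECIS element and is needed for UGA to be read through, had a mean of 830 (806 to 855), with 62.4% of genes below. Among only the genes whose mean reached 10, 44.5% were below it. Per kb it had 249 (242 to 257), with 55.1% of the matched genes below. Its paralog *Secisbp2l*, which is not a member, had 398 per kb, 1.59 times *Secisbp2*, and was higher under the other lengths too, by ratios of 2.57 and 1.83. The elongation factor *Eefsec* had 426 per kb, 1.71 times *Secisbp2*, with ratios of 2.02 and 2.27 under the other lengths. *Secisbp2* was therefore the lowest of these decoding factors under all 3 lengths.

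**Figure D3:**
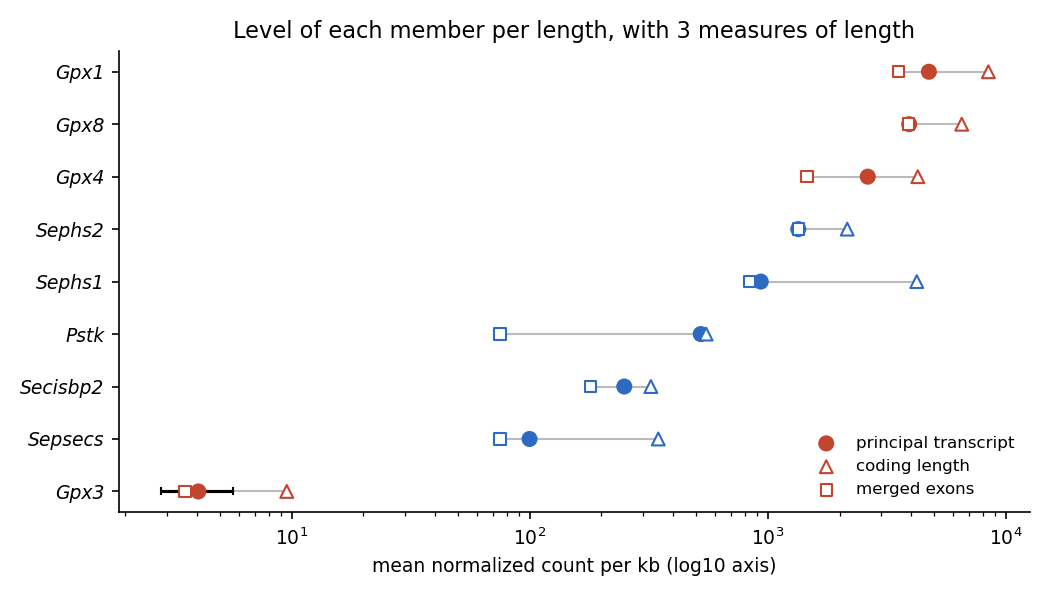
Level of the 9 members per kb on a log10 axis, ordered by the value for the principal transcript. Filled circles use the principal transcript, with 95% Poisson intervals that are wider than the symbol only for *Gpx3*; triangles use the coding length and squares the merged exons of all transcripts. *Pstk* and *Sephs1* span the widest ranges between lengths, and *Gpx3* lies far below the rest under all 3.

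Over the 9 members the order per kb was *Gpx1*, *Gpx8*, *Gpx4*, *Sephs2*, *Sephs1*, *Pstk*, *Secisbp2*, *Sepsecs* and *Gpx3*. Of the 36 pairs, 31 kept their order under all 3 lengths. Among the 8 pairs of neighbours only 4 did, namely *Gpx8* over *Gpx4*, *Gpx4* over *Sephs2*, *Sephs1* over *Pstk* and *Sepsecs* over *Gpx3*. Those that turned were *Gpx1* and *Gpx8*, *Sephs2* and *Sephs1*, *Pstk* and *Secisbp2*, and *Secisbp2* and *Sepsecs*. Per kb of principal transcript, the median of the 4 peroxidases found was 3275 and that of the 5 factors 522. It was 172 over all matched genes and 419 among those with a mean of at least 10. The factor median was the level of *Pstk* itself, also per coding length, where it was 550. With merged exons *Pstk* was at 74.9, and the middle factor was *Secisbp2* at 179. Medians over all matched genes are not given here for these other lengths.

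The other genes of the selenocysteine pathway were all in the table, 8 of 8, with means of at least 221. *Sars*, the synthetase that loads serine on this tRNA as well as on the serine tRNAs, was at 3764 per kb. *Trnau1ap*, which associates with the tRNA, was at 1016 per kb, and at 424 with merged exons. *Scly*, a lyase that releases selenium from selenocysteine for reuse, was the lowest of the 8 with a mean of 221. It had 100 per kb of principal transcript against 99.7 for *Sepsecs*, but 171 against 346 per coding length and 48.6 against 75.0 with merged exons. *Rpl30*, *Ncl* and *Eif4a3*, which bind SECIS elements but have main roles in the ribosome, the nucleolus and RNA processing, were at 29256, 19440 and 6366 per kb. With merged exons *Rpl30* was at 8583, below *Ncl* at 15651, and per coding length these genes were at 75133 and 75177.

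Glutathione, the electron donor of many peroxidases of this family, needs its own enzymes. *Gclc* and *Gclm*, the catalytic and modifier subunits of the ligase that starts its synthesis, were at 1336 and 1015 per kb. *Gss*, which completes it, was at 868 per kb, and *Gsr*, which returns oxidized glutathione to its reduced form, at 1685 per kb. *Gpx1*, *Gpx8* and *Gpx4* were each higher than all 4 per kb of principal transcript. Under the other lengths that order did not hold throughout: per coding length *Gclm*, at 6902, was above *Gpx8* (6521) and *Gpx4* (4263), and with merged exons *Gsr*, at 1635, was above *Gpx4* (1461). The ratio of *Gpx4* to *Gclc* was 1.97 per principal transcript, 1.78 per coding length and 1.20 with merged exons.

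Of the found members, *Gpx1*, *Gpx3*, *Gpx4* and *Sephs2*, belong to the selenoproteins, whose mRNAs share the selenocysteine supply. The annotation gives 24 mouse genes with a selenocysteine codon in any of their transcripts, and 20 were found in the table, 9 by current symbol and 11 by an older one. *Dio3*, *Gpx2*, *Selenof* and *Selenov* were not. Among the 20 found, *Txnrd1*, the cytosolic thioredoxin reductase, was the highest at 5084 per kb, followed by *Gpx1* at 4745. *Selenot* and *Selenow* had 3405 and 3176, and *Gpx4* came 5th with 2627. *Sephs2* was 8th with 1342, above the median of 810 over the 20 genes, and *Gpx3* was 18th, above only the deiodinase genes *Dio1* and *Dio2*, which had 5 reads each in all libraries.

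These places moved with the length. *Gpx1* was 4th per coding length and 1st with merged exons, *Gpx4* was 8th and 7th, *Sephs2* was 10th and 8th, and *Gpx3* stayed 18th. The ratio of *Txnrd1* to *Gpx4* was 1.94 per principal transcript, 2.81 per coding length and 1.73 with merged exons, so *Txnrd1* was the more abundant under each. *Gpx4* was above *Selenoh* per principal transcript (2627 and 2450 per kb) but below it per coding length (4263 and 5513) and with merged exons (1461 and 1696).

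Each level was then weighted by the highest number of selenocysteine codons annotated in any transcript of the gene. *Gpx1* held 15.7% of all such codons in the 20 mRNAs, *Gpx4* 8.69% and *Gpx3* 0.0134%. Together the 3 peroxidases held 24.4% (Wilson 95% interval 24.2% to 24.5%). *Sephs2* added 4.44%, which brought the 4 members to 28.8%. *Txnrd1* alone held 16.8%. *Selenop*, the selenium carrier of plasma, has 10 such codons, and its 0.312% of the transcripts carried 3.04% of the codons.

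The share of the peroxidases was sensitive to the choice of length and genes. It was 15.9% per coding length and 21.8% with merged exons. One row of the table is listed as a date that, among mouse gene symbols, only an older name of *Selenof* gives; its mean of 13424, or 8866 per kb over 1514 bases, would be the highest of the set. With that row counted as *Selenof*, the 3 peroxidases held 18.9%. The places among selenoproteins and the codon shares of single genes given here leave that row out.

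**Figure D4:**
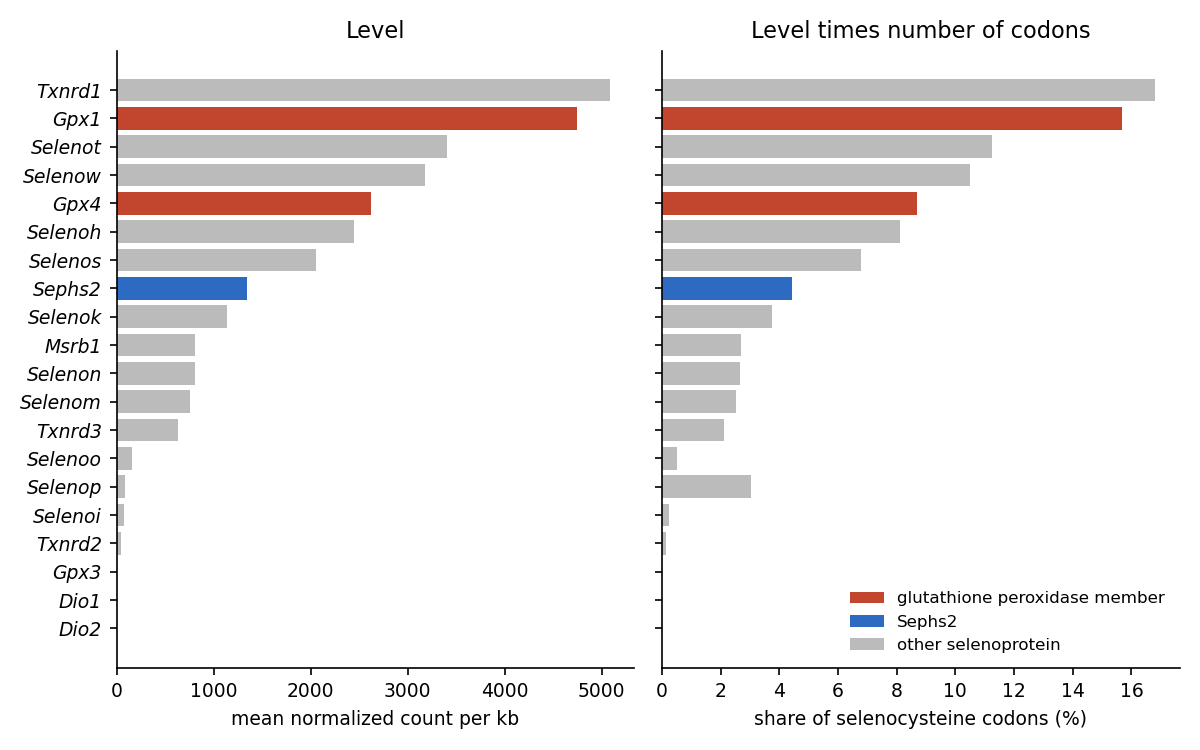
The 20 selenoprotein genes found, ordered by level. The left panel gives mean normalized count per kb of principal transcript. The right panel gives the share of selenocysteine codons in percent, from level times the highest annotated codon number of the gene. Bars start at 0, red bars are glutathione peroxidase members and the blue bar is *Sephs2*. *Gpx1* and *Gpx4* are 2nd and 5th by level, and *Selenop*, 15th by level, has a visibly longer bar only in the right panel.

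For reference, the members lie on GRCm38 as follows. *Gpx1* spans chr9:108338903-108340343 and *Gpx3* chr11:54902453-54910377, both on the plus strand. *Gpx4* spans chr10:80047166-80056439 on the plus strand, *Gpx7* chr4:108400390-108406961 on the minus strand and *Gpx8* chr13:113042753-113046410 on the minus strand. *Sephs1* spans chr2:4881564-4910557 (plus) and *Sephs2* chr7:127271879-127274055 (minus). *Secisbp2* lies at chr13:51651697-51684044 (plus, 17 exons), *Pstk* at chr7:131371141-131394482 (plus, 6 exons) and *Sepsecs* at chr5:52640087-52669708 (minus, 11 exons).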

How the data were processed

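Poly(A) RNA of 6 libraries was sequenced. For the authors' processing, the submitters' notes in the labels name TopHat, HTSeq, Cufflinks, Cuffdiff, DESeq2 and mm10. For the same work by the authors, the study's methods name STAR, HTSeq and DESeq2. The TruSeq kit is strand-specific per the labels. These sources differ, and which aligner made the table was not settled. The deposited table holds, per gene, a signal that the authors computed as the mean of counts divided by DESeq2 size factors over all libraries, which was used here. Its other columns hold the authors' own comparison of *Ms4a15* OE with control cells (log2 fold change, its standard error, p-value, adjusted p-value and direction) and were not used, so no group test was run. Columns of per-sample values left unused numbered 0.

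The members and lists were chosen with earlier results of these data known. All 10 members and the genes of the fixed lists (further peroxidases, selenocysteine factors, selenoproteins, glutathione enzymes, cell type markers) could be named. Gene names were matched to GENCODE M21 on GRCm38, the build of mm10, by symbol (14676 genes) or an older symbol (1517), 84.9% of all. Levels were divided by the length of the principal coding transcript, with coding length and merged exons as alternatives. Size factors were read from the means of 1267 genes that equal 1 read in 1 library (0.887 to 1.14, not assigned to libraries). On simulated Poisson counts with chosen size factors, recovery had a largest relative error of 3e-06, which checks the calculation and not the factors of these libraries. Read numbers and exact 95% Poisson intervals followed from these factors; Wilson intervals were used for shares. Totals of single libraries are unknown. Proteins were translated from coding sequences and aligned with BLOSUM62 (gap opening 11, extension 1). Python 3.11.15, numpy 2.4.6, pandas 2.3.3, scipy 1.17.1, Biopython 1.88 and matplotlib 3.10.9 were used.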

Additional observations from a re-analysis of the deposited data

How the results depend on the processing

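The number of members in the top 10% of genes was 1 (*Gpx1*), 0 when only genes whose mean reached 10 were ranked, and 3 (*Gpx1*, *Gpx8* and *Gpx4*) when ranked per kb. The ranking per kb covered only the 16193 genes matched to the annotation. The share of *Gpx4* among the peroxidase genes, 23.2%, was 22.2% per coding length, 21.5% without length correction and 16.4% with merged exons. The share of selenocysteine codons held by the peroxidases, 24.4%, was 15.9% per coding length, 13.4% without length correction, 29.3% without *Txnrd1*, 21.8% with merged exons and 18.9% with the row listed as a date. The merged exons and the date row were alternatives chosen after seeing the data. Coding length multiplied the members' levels per kb by 1.05 to 4.52, and merged exons by 0.143 to 1.00. No paired analysis was possible because the values used give 1 mean per gene over both groups and no value of a single library. For the same reason the group test planned with edgeR, its DESeq2, unfiltered and blocked alternatives and leaving out each replicate were not run. Counting error is large only for *Gpx3* among the members, but the interval of *Gpx1* includes the value where the top 10% begins. The spread between libraries is unknown for all members.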
